A study of Mus musculus with 2 samples.

Results

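Toll-like receptors are innate immune sensors of microbial lipids, proteins and nucleic acids, and 10 genes of this system were followed here among the 55386 features counted in CD45+ cells of the mouse aortic adventitia. The genes were taken by symbol, and each symbol matched 1 feature: the receptors Tlr1, Tlr2, Tlr3, Tlr4, Tlr7, Tlr9 and Tlr13, the co-receptors Cd14 and Ly96, and the adaptor Myd88. Tlr2 recognizes bacterial lipoproteins as a dimer with Tlr1 or Tlr6 at the cell surface, and Tlr4 binds lipopolysaccharide together with MD-2, the product of Ly96, after CD14 has handed the ligand over. Tlr3, Tlr7, Tlr9 and Tlr13 sit in endosomes and read double-stranded RNA, single-stranded RNA, unmethylated CpG DNA and bacterial ribosomal RNA. All of these receptors except Tlr3 signal through MyD88, which leads to NF-kB activation and to cytokines such as interleukin-1 beta. In arteries, macrophages are the best known carriers of this machinery, and macrophages of embryonic and of bone marrow origin live side by side in the adventitia.

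The data came from RankCreRosa26eYFP mice aged 16 weeks, in which Cre made from the Rank (Tnfrsf11a) locus switches on a permanent eYFP reporter, so that EYFP transcripts mark descendants of cells that once expressed Rank as well as cells that express it later. One droplet library held cells pooled from 3 animals at steady state, and the other held cells pooled from 2 animals after 10 days of angiotensin II (AngII), a hypertensive peptide given by pump at 1.8 µg per kg per min. All animals of both groups carried the reporter, live CD45+ cells were enriched and sorted before capture, and each gene was read as unique molecular identifiers (UMIs), that is, counted transcript copies. With 1 library per condition, a difference between libraries has no replicate check, condition and library cannot be told apart, and every interval printed here is an exact 95% interval that covers counting error only.

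The cell filters left 306 of 346 barcodes at steady state and 4198 of 4419 on AngII, and the 2 libraries shared 0 barcodes. The depth was very unequal, with a median of 9105 UMIs per cell at steady state and 1092 on AngII. Levels are therefore given as CPM, the UMIs of a gene among all UMIs summed over the cells of a class, scaled to 1000000, and are compared between classes within a gene, not between genes. Shares of cells with a UMI are compared after each cell was thinned to a common number of UMIs. Cells were placed in classes by marker lists that held none of the 10 genes. This gave 136 macrophages at steady state (44.4% of cells) and 2085 on AngII (49.7%). All 8 macrophage markers were higher inside the class than outside it in both libraries. The gate used these same markers, so this is no independent check of the class. Macrophages with at least 5000 CPM of resident markers such as Lyve1, Folr2 and Cd163 were called resident, which applied to 111 of 136 (81.6%) at steady state and to 557 of 2085 (26.7%) on AngII, with 5 and 277 cells within 20% of that level. The remaining 25 and 1528 macrophages are called other macrophages as one group, and in the plot by class the label covers those that fell in no smaller macrophage class. Fibroblast, endothelial, smooth muscle, erythrocyte and platelet markers each summed to between 1.14 and 12.6 CPM in the macrophages of either library. On AngII, markers of another lineage reached at least 60% of the score of the class given in many cells of some classes. These were 80 of 206 macrophages that carry Arg1 and Spp1 and 141 of 315 neutrophils. They were also 166 of 348 classical monocytes, 96 of 190 type-2 dendritic cells and 82 of 557 resident macrophages. Levels and orders of classes on AngII include these cells.

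The promoters of Tlr1, Tlr13 and Myd88, the genes at least 2-fold higher on AngII in macrophages, and of Tlr2, just under that limit, are shown as the start regions of the genes whose levels the comparison below turns on. Tlr1 has 2 start sites. RefSeq start sites (GRCm38.p6) were on hand for 6 of the 10 genes, and each sequence runs from 250 bases before to 50 bases after a start site. Capitals mark 3 sets of letters searched on both strands: GAGGAA, the core bound by PU.1 and other ETS factors, GAAANNGAA, part of interferon response elements, and GGGNNTTCC, an NF-kB site. These occurred in 28.3%, 8.56% and 5.82% of all 32851 promoters of the same length, and a match is a description of letters, not a bound site.
Tlr1, chr5:64933509-64933808, minus strand: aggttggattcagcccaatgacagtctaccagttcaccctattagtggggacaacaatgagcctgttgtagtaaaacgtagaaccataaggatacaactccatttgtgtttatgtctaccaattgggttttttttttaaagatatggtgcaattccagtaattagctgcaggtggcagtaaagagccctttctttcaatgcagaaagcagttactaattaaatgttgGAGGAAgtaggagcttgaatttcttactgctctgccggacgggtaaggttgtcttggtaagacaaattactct
Tlr1, chr5:64932650-64932949, minus strand: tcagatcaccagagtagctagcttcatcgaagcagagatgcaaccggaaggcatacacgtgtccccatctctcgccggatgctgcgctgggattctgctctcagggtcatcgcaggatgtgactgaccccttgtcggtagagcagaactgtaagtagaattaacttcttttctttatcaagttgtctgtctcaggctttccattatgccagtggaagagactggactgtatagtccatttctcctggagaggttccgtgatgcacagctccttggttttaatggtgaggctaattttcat
Tlr2, chr3:83841559-83841858, minus strand: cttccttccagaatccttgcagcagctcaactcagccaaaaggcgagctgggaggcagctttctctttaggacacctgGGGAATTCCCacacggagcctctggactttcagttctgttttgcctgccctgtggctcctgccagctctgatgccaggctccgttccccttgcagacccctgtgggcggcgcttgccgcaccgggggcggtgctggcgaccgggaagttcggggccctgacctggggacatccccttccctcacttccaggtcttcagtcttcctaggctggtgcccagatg
Tlr13, chrX:106143025-106143324, plus strand: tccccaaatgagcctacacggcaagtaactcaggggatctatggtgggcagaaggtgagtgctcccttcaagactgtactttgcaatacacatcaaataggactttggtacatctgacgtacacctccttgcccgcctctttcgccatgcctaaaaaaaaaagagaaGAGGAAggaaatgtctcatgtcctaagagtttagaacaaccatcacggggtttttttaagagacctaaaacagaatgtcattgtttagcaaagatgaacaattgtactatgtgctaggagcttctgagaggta
Myd88, chr9:119339969-119340268, minus strand: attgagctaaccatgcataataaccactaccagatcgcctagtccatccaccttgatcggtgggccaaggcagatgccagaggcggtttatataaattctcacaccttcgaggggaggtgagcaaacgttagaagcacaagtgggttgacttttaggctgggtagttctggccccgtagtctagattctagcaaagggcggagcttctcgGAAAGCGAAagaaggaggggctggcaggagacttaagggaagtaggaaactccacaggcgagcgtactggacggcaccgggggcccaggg
The capitals in the Tlr2 promoter are 1 NF-kB stretch that reads as a match on both strands and starts 172 bases upstream of the start site. The first Tlr1 promoter held 1 ETS core, 23 bases before its start site, and the second no match. The Tlr13 promoter held 1 ETS core, 83 bases before the start site, and the Myd88 promoter held 1 interferon response match, 40 bases before it. The Tlr3 promoter held no match to any of the 3 sets.

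**Figure D1:**
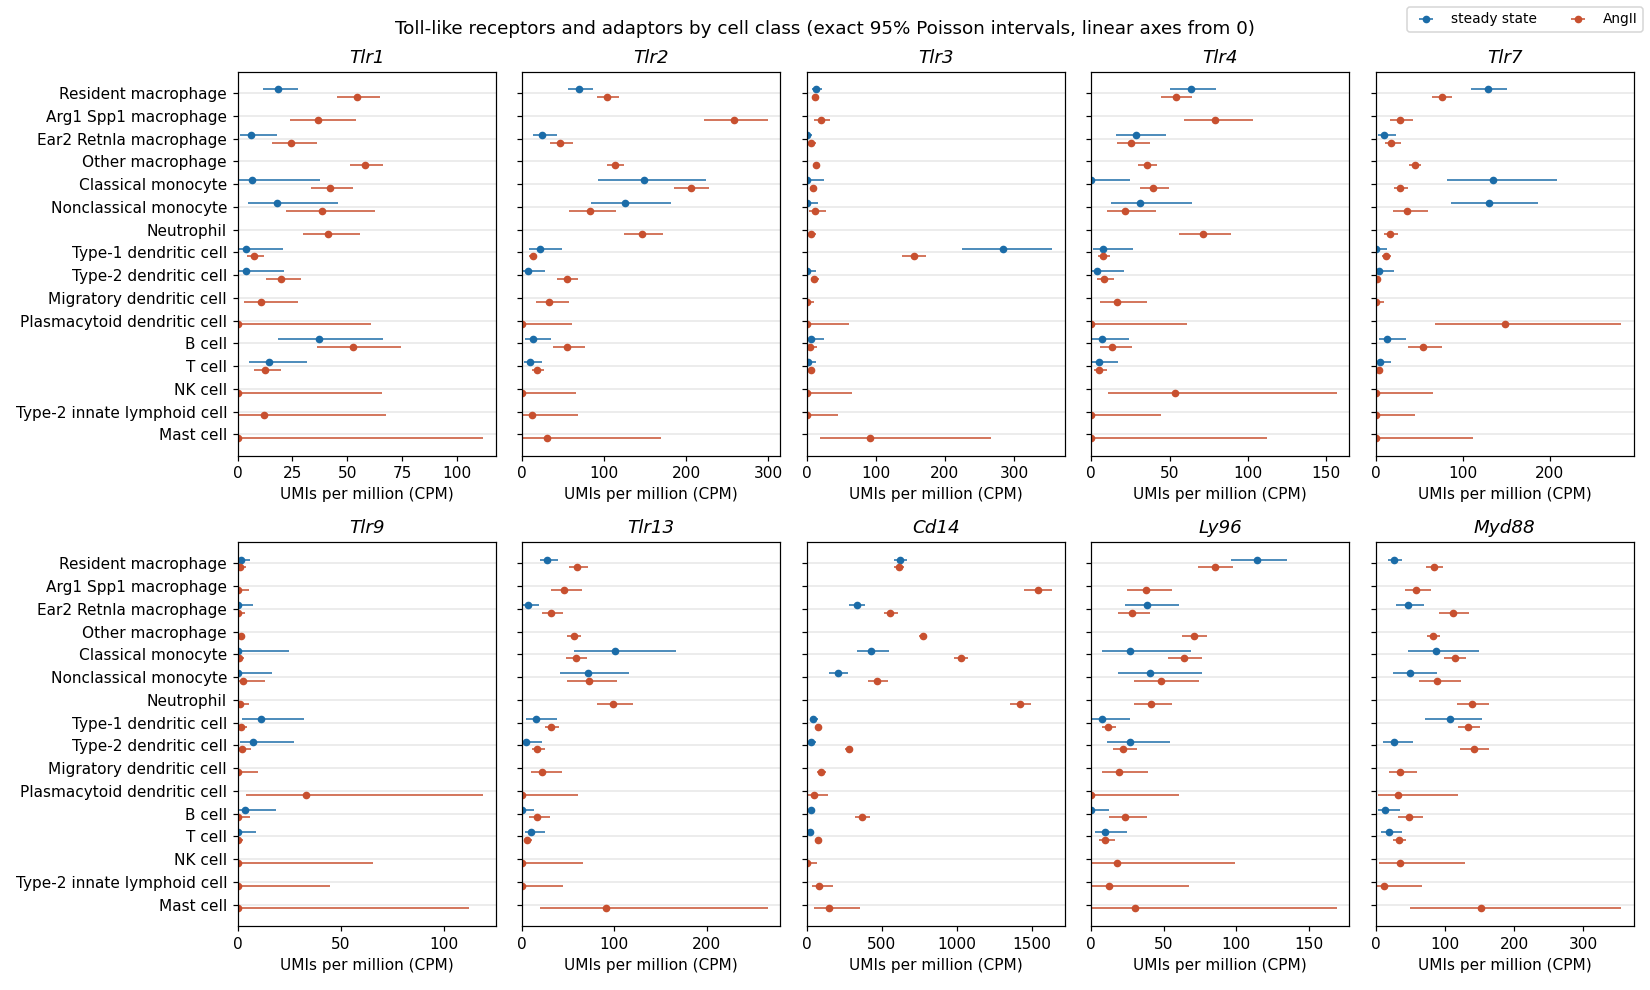
Level of each gene (CPM, linear axes) in every cell class of at least 10 cells at steady state (blue) and on AngII (red); points are CPM of summed UMIs and bars are exact 95% Poisson intervals. Tlr3 stood out in type-1 dendritic cells of both libraries (284 and 155 CPM), while Cd14 spread over macrophages, monocytes and, on AngII, neutrophils.

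The surface receptors were read first. Tlr2 was highest in monocytes at steady state, with 148 CPM in 10 classical monocytes (interval 92.9 to 224) and 125 CPM in 16 nonclassical monocytes (83.3 to 181), against 69.7 CPM in resident macrophages (55.6 to 86.3). On AngII the top level moved to macrophages that carry Arg1 and Spp1, at 258 CPM (221 to 299), followed by classical monocytes at 205 CPM (185 to 227) and neutrophils at 146 CPM (124 to 171). The intervals of the first pair of these AngII classes overlapped, and that of neutrophils lay below both. Resident macrophages held 104 CPM on AngII. T cells, the class that levels were set against, held 9.62 CPM at steady state and 18.0 CPM on AngII. Whether T cells carry the genes themselves was not tested, so a level near theirs is not shown to be background. Tlr2 thus exceeded T cells beyond counting error in 3 of 7 other classes at steady state and in 9 of 15 on AngII. Such counts cannot be compared between the libraries, whose classes and class sizes differ.

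Tlr1, the partner of Tlr2 for triacylated lipopeptides, was sparse at steady state, where B cells held 37.1 CPM (18.5 to 66.5), resident macrophages 18.3 CPM (11.4 to 27.6) and T cells 14.4 CPM (5.30 to 31.4). No class lay above T cells beyond counting error there. On AngII it reached 58.3 CPM in macrophages of no smaller class (51.1 to 66.3), 54.4 CPM in resident macrophages (45.3 to 64.8), 52.8 CPM in B cells (36.1 to 74.5) and 42.1 CPM in classical monocytes (33.3 to 52.6), against 12.5 CPM in T cells (7.40 to 19.7). Type-1 dendritic cells stayed at 7.33 CPM.

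The lipopolysaccharide receptor and its helpers were highest in resident macrophages at steady state. Among classes of at least 10 cells these held 63.9 CPM of Tlr4 (50.4 to 79.9), 115 CPM of Ly96 (96.2 to 135) and 623 CPM of Cd14 (579 to 669). The Tlr4 interval overlapped that of nonclassical monocytes at 31.3 CPM (12.6 to 64.6). For Cd14, classical monocytes at 431 CPM (332 to 551), Ear2 Retnla macrophages at 334 CPM and nonclassical monocytes at 206 CPM also lay above T cells. The level in classical monocytes came mostly from a single cell, as given below. Classical monocytes held 0 UMIs of Tlr4, with an interval up to 24.9 CPM, and 26.9 CPM of Ly96 (7.34 to 69.0). On AngII Ly96 was 85.2 CPM in resident macrophages (73.7 to 98.1), an interval that overlapped those of macrophages of no smaller class at 70.9 CPM (62.8 to 79.6) and classical monocytes at 63.7 CPM (52.8 to 76.3), whereas Tlr4 was highest in Arg1 Spp1 macrophages (79.2 CPM, 59.5 to 103) and neutrophils (71.1 CPM, 55.8 to 89.3), whose intervals overlapped each other and that of resident macrophages (53.9 CPM, 44.9 to 64.3). Cd14 was highest in Arg1 Spp1 macrophages at 1539 CPM (1447 to 1635) and in neutrophils at 1422 CPM (1350 to 1496), above classical monocytes at 1025 CPM and resident macrophages at 614 CPM.

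Cd14 UMIs were also found in lymphocytes, and in small classes single cells carried much of the count. T cells held 21.7 CPM of Cd14 at steady state (9.90 to 41.1) and 75.6 CPM on AngII (62.1 to 91.2), and after thinning to 1000 UMIs 0% of 43 steady state T cells and 9.14% of 197 AngII T cells had a UMI. Unthinned, the shares were 4.65% and 14.6%, at median depths of 8315 and 1082 UMIs. One T cell held 8 of the 9 UMIs at steady state and one held 30 of the 109 on AngII. B cells held 30.4 CPM at steady state and 370 CPM on AngII, where 1 cell had 87 of the 224 UMIs. At steady state 1 of the 10 classical monocytes held 56 of the 64 Cd14 UMIs of that class. A level of Cd14 that T cells overlap, such as 77.2 CPM in AngII type-1 dendritic cells (65.6 to 90.2), is not read as above T cells.

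Among the endosomal receptors, Tlr3 marked type-1 dendritic cells, which cross-present antigen and carry Xcr1 and Clec9a. At steady state they held 284 CPM in 13 cells (224 to 355), and the next class, resident macrophages, held 13.3 CPM (7.59 to 21.6). On AngII they held 155 CPM (138 to 173), and 169 of the 311 cells that had a UMI of Xcr1 or Clec9a held 166 CPM (148 to 186) against 68.3 CPM (39.0 to 111) in the 142 that had none. Macrophages as a whole stayed at 9.11 CPM (5.21 to 14.8) and 13.1 CPM (10.7 to 15.8). In 26 AngII mast cells 3 UMIs gave 91.2 CPM, with an interval from 18.8 to 267.

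Tlr7 was shared by monocytes and resident macrophages at steady state, at 135 CPM in classical monocytes (82.3 to 208), 130 CPM in nonclassical monocytes (87.0 to 186) and 129 CPM in resident macrophages (109 to 151), levels that counting error does not separate. Ear2 Retnla macrophages held 10.2 CPM (3.31 to 23.8), with an interval that overlapped that of T cells at 4.81 CPM. On AngII resident macrophages held 76.1 CPM (65.3 to 88.3), classical monocytes 28.6 CPM (21.4 to 37.4) and B cells 54.4 CPM (37.5 to 76.5). Plasmacytoid dendritic cells, the classical Tlr7 and Tlr9 cell, were 12 cells on AngII and gave 149 CPM of Tlr7 from 9 UMIs (68.0 to 282) and 33.0 CPM of Tlr9 from 2 UMIs (4.0 to 119).

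Tlr9 was otherwise almost absent from both libraries. It gave 2 UMIs in all macrophages at steady state (1.14 CPM, 0.138 to 4.11) and 10 UMIs on AngII (1.26 CPM, 0.602 to 2.31). B cells, which use Tlr9, gave 1 UMI at steady state and 0 on AngII, with an interval up to 6.09 CPM on AngII. Tlr9 fell below the 20 UMIs required for a ratio in every comparison, so counts below refer to at most 9 of the 10 genes.

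Tlr13 at steady state was highest in monocytes, at 101 CPM in classical monocytes (56.6 to 167) and 71.6 CPM in nonclassical monocytes (40.9 to 116), both above resident macrophages at 27.4 CPM (18.9 to 38.5). On AngII neutrophils held 99.0 CPM (80.8 to 120), which overlapped nonclassical monocytes at 72.4 CPM (48.9 to 103) and mast cells at 91.2 CPM from 3 UMIs (18.8 to 267). Those monocytes, resident macrophages at 60.02 CPM and classical monocytes at 58.3 CPM overlapped in their intervals. T cells held 9.62 and 5.55 CPM.

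Myd88 was highest in type-1 dendritic cells at steady state, with 107 CPM (71.7 to 154), beside 87.6 CPM in classical monocytes (46.6 to 150). Resident macrophages held 26.6 CPM (18.2 to 37.5), a level that overlapped that of T cells at 19.2 CPM (8.31 to 37.9). On AngII type-2 dendritic cells (142 CPM, 122 to 163), neutrophils (139 CPM, 118 to 164) and type-1 dendritic cells (134 CPM, 118 to 151) could not be ordered, 26 mast cells gave 152 CPM from 5 UMIs (49.3 to 355), and resident macrophages held 84.8 CPM (73.3 to 97.6) against 33.3 CPM in T cells (24.5 to 44.1). The adaptor was therefore above T cells beyond counting error in 2 of 7 classes at steady state and in 9 of 15 on AngII. Nonclassical monocytes (49.3 CPM, 24.6 to 88.1) and Ear2 Retnla macrophages (46.9 CPM, 29.7 to 70.3) overlapped T cells at steady state. The classes and their sizes differ between the libraries, so these counts do not show a spread of the gene.

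The comparison of AngII with steady state in macrophages asked how these genes differ after the inflammatory stimulus. Of the 9 genes with at least 20 UMIs in both groups together, Tlr1, Tlr13 and Myd88 were at least 2-fold higher on AngII and none was at least 2-fold lower. Among all 11453 genes tested, 8.32% were at least 2-fold higher and 8.67% at least 2-fold lower, and the median ratio was 0.982 against 1.43 for the 9 genes. Tlr1 went from 14.8 to 51.1 CPM, a ratio of 3.45 (2.32 to 5.35). Myd88 went from 32.5 to 85.1 CPM, a ratio of 2.62 (2.0 to 3.50). Tlr13 went from 21.6 to 53.2 CPM, a ratio of 2.46 (1.76 to 3.53).

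Tlr2 lay just inside the limit, with 58.6 and 114 CPM and a ratio of 1.95 (1.59 to 2.42). Cd14 had a ratio of 1.37 (1.28 to 1.47), from 557 to 765 CPM. The opposite direction was seen for Tlr7, which was 93.4 CPM at steady state and 49.1 CPM on AngII, 1.90-fold lower (1.58 to 2.29), and for Ly96, at 91.1 and 66.9 CPM, 1.36-fold lower (1.13 to 1.63). For Tlr4 (ratio 0.803, 0.638 to 1.02) and Tlr3 (1.43, 0.842 to 2.60) the interval held 1. Beyond counting error, Tlr1, Tlr2, Tlr13, Cd14 and Myd88 thus stood higher on AngII and Tlr7 and Ly96 lower, and both directions were seen among endosomal receptors and among the parts of the lipopolysaccharide receptor.

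Because resident cells were 81.6% of macrophages in one library and 26.7% in the other, the ratios were also taken within resident macrophages. Tlr1 (2.98, 1.88 to 4.92), Tlr13 (2.19, 1.49 to 3.31) and Myd88 (3.19, 2.19 to 4.80) were again the genes at least 2-fold higher and none was 2-fold lower, where 7.52% and 6.88% of 9508 genes passed in these directions. Cd14 did not differ beyond counting error within resident macrophages (623 and 614 CPM, ratio 0.985, 0.901 to 1.08), and Tlr7 was 1.69-fold lower on AngII (1.35 to 2.11). Ly96 was 1.34-fold lower there (1.07 to 1.68) and Tlr2 1.49-fold higher (1.15 to 1.93). The other macrophages were not the same mixture in the libraries, since 18 of 25 were Ear2 Retnla macrophages at steady state and 194 of 1528 on AngII, where 206 were Arg1 Spp1 macrophages. In them 5 of 9 genes were at least 2-fold higher and 0 lower, against 13.7% and 7.04% of 10394 genes. There Tlr7 was 16.3 CPM at steady state and 38.1 CPM on AngII (ratio 2.33, 1.21 to 5.17). Tlr3 had 0 UMIs in them at steady state. With that 0 set to 3 UMIs its ratio was 2.46, and the exact interval started at 1.96. Within Ear2 Retnla macrophages Tlr7 held 10.2 CPM at steady state and 18.2 CPM on AngII (10.8 to 28.7), and Tlr2 24.4 CPM (12.6 to 42.7) and 46.4 CPM (34.0 to 61.9), each pair with overlapping intervals.

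**Figure D2:**
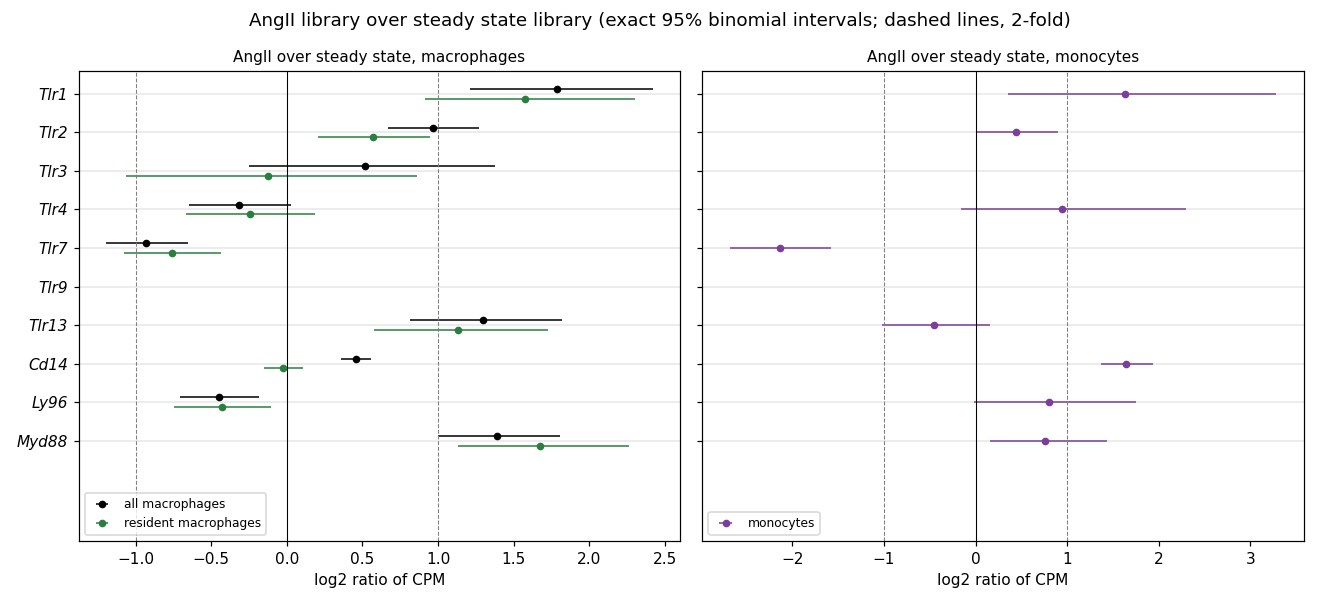
Log2 ratio of CPM, AngII over steady state, for each gene with at least 20 UMIs, in all and in resident macrophages (left) and in monocytes (right); bars are exact 95% binomial intervals, dashed lines mark 2-fold, and a gene with 0 UMIs in one library is not drawn. Tlr1, Tlr13 and Myd88 lie above 2-fold in both macrophage sets, and Tlr7 lies below equality in all 3 sets.

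The genes past 2-fold in monocytes were others in part. In 384 AngII against 26 steady state monocytes, Cd14 was 3.12-fold higher (2.58 to 3.82; 296 and 923 CPM), where the steady state value includes the monocyte with 56 of 110 UMIs, and Tlr1 3.09-fold higher (1.28 to 9.72), while Tlr7 was 4.39-fold lower (2.98 to 6.43; 132 and 30.0 CPM). At least 2-fold higher and lower levels were seen for 11.6% and 7.68% of 8269 genes. The monocytes were 10 classical and 16 nonclassical cells at steady state and 348 and 36 on AngII. Within classical monocytes Cd14 was 431 CPM and 1025 CPM (979 to 1072), and within nonclassical monocytes 206 CPM (151 to 275) and 471 CPM (407 to 542). Tlr7 was lower on AngII within both, at 135 and 28.6 CPM and at 130 and 36.2 CPM, with intervals that do not overlap, while those of Tlr1 overlapped in both. Tlr13, higher on AngII in macrophages, was not so in monocytes (83.4 and 60.9 CPM, ratio 0.731, 0.492 to 1.12), with 101 and 58.3 CPM in classical and 71.6 and 72.4 CPM in nonclassical cells. Type-1 dendritic cells had less Tlr3 on AngII, 1.84-fold lower (1.41 to 2.36), in 13 cells at steady state and 311 on AngII. All 13 had a UMI of Xcr1 or Clec9a, against 169 of the 311, whose higher Tlr3 level is given above. Type-2 dendritic cells had more Myd88, at 26.6 CPM in 11 cells and 142 CPM in 190 cells (ratio 5.33, 2.54 to 13.4). T cells differed in Cd14 (ratio 3.49, 1.77 to 7.84) but not beyond counting error in Myd88 (1.73, 0.811 to 4.23), Tlr2 (1.87, 0.650 to 7.39) or Tlr1 (0.865, 0.329 to 2.66). The T cell intervals for Myd88 and Tlr2 also hold the macrophage ratios of 2.62 and 1.95, so they do not set the classes apart. Whether free RNA had a part in the Cd14 differences was not tested. In B cells Tlr7 had a ratio of 4.03 (1.43 to 15.7), from 4 UMIs at steady state and 33 on AngII.

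Shares of cells were set side by side at matched depth. After thinning to 5000 UMIs, which left 118 of 136 steady state and 369 of 2085 AngII macrophages, Tlr1 was found in 6.78% (2.97 to 12.9) and 23.6% (19.3 to 28.2) of them. Myd88 was found in 14.4% (8.62 to 22.1) and 32.8% (28.0 to 37.8), beside 11.9% and 21.5% of T cells. Tlr2 was found in 22.9% (15.7 to 31.5) and 39.3% (34.3 to 44.5), beside 2.38% and 10.1% of T cells. Tlr7 was found in 37.3% (28.6 to 46.7) and 21.4% (17.3 to 26.0) and in 0 of 42 and 0 of 79 T cells. Ly96 was found in 42.4% (33.3 to 51.8) and 26.3% (21.9 to 31.1), while Cd14 (79.7% and 83.7%) and Tlr4 (21.2% and 20.9%) had overlapping intervals. Those of Tlr13 met at their ends, at 12.7% (7.29 to 20.1) and 24.4% (20.1 to 29.1), and Tlr3 was found in 7.63% and 4.88%, also with overlap. Resident cells were 97 of the 118 and 128 of the 369 macrophages. Within them the intervals of the libraries overlapped for every one of the 10 genes. Tlr1 was found in 8.25% (3.63 to 15.6) and 18.8% (12.4 to 26.6) of resident macrophages, Myd88 in 16.5% (9.73 to 25.4) and 31.2% (23.4 to 40.0) and Tlr2 in 24.7% (16.5 to 34.5) and 33.6% (25.5 to 42.5). Tlr7 was found in 44.3% (34.2 to 54.8) and 31.2% (23.4 to 40.0), and Ly96 in 46.4% (36.2 to 56.8) and 28.1% (20.5 to 36.8). Unthinned and over all macrophages, the same genes were found in 16.2% and 12.5% (Tlr1) and in 50.0% and 12.7% (Tlr7) of cells, at median depths of 10329 and 1058 UMIs.

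Single macrophages rarely showed a whole receptor complex at this depth. Cd14, Ly96 and Tlr4 were found together in 9 of 118 steady state macrophages (7.63%, 3.55 to 14.0) and 14 of 369 on AngII (3.79%, 2.09 to 6.28). Tlr1 and Tlr2 were found together in 3 of 118 (2.54%, 0.527 to 7.25) and 42 of 369 (11.4%, 8.33 to 15.1). The shares of the single genes differed too, and whether genes met in a cell more often than those shares give was not tested. None of the 7 receptors was found in 29.7% and 23.3% of these macrophages, compared with 92.9% and 86.1% of T cells. In the unthinned macrophages of the AngII library 1672 of 2085 had no Tlr2 UMI, 239 had 1 and 174 had more, so a missing UMI says little about a single cell.

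**Figure D3:**
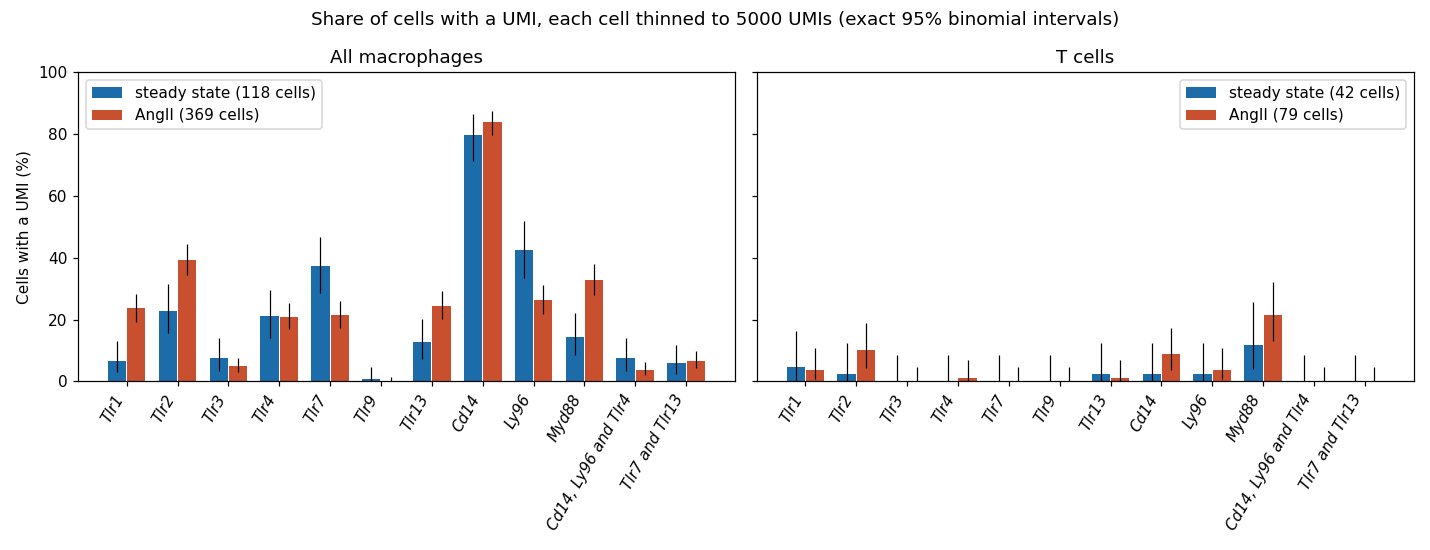
Share of macrophages (left) and T cells (right) with a UMI of each gene, or of all genes of a set in the same cell, after each cell was thinned to 5000 UMIs, at steady state (blue) and on AngII (red); bars show percent and lines exact 95% binomial intervals. The intervals of the libraries do not overlap for Tlr1, Tlr2 and Myd88, found in more AngII macrophages, nor for Tlr7 and Ly96, found in fewer. Within resident macrophages alone, not drawn, they overlap for all 10 genes, which does not show equal shares.

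Resident and other macrophages were compared within each library. At steady state Tlr7 was 129 CPM in the 111 resident cells and 16.3 CPM in the other 25, a ratio of 7.88 (4.04 to 17.6). Ly96 (2.87, 1.82 to 4.73), Tlr13 (3.02, 1.17 to 9.91), Tlr2 (2.02, 1.22 to 3.52) and Tlr1 (2.52, 0.854 to 10.0) also passed 2-fold, so that 5 of 8 genes were higher and 0 lower, against 16.6% and 6.15% of 7788 genes. The interval for Tlr1 held 1. Of the 25 other cells 18 were Ear2 Retnla macrophages, with a median depth of 27025 UMIs against 9704 in resident cells. Thinned to 5000 UMIs, 2 genes passed 2-fold.

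On AngII no gene of the 9 passed 2-fold between the 557 resident and the 1528 other macrophages, against 4.86% higher and 4.08% lower among 10937 genes. Tlr7 was at 76.1 and 38.1 CPM, a ratio of 1.997 (1.63 to 2.45) just under the limit. Ly96 (1.43, 1.196 to 1.71) and Tlr4 (1.38, 1.10 to 1.72) were higher in resident cells, and Cd14 was lower, at 614 and 827 CPM (1.35-fold, 1.27 to 1.43). Myd88 was level, at 84.8 and 85.2 CPM (0.995, 0.838 to 1.18).

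Monocytes over macrophages on AngII gave 0 genes past 2-fold, against 3.26% higher and 10.5% lower among 11352 genes. Tlr2 was 1.596-fold higher in monocytes (1.42 to 1.79; 183 and 114 CPM), Myd88 1.29-fold higher (1.11 to 1.49) and Cd14 1.21-fold higher (1.15 to 1.27), while Tlr7 was 1.64-fold lower (1.26 to 2.15). At steady state the same comparison rested on 26 monocytes, in which Tlr13 was 3.85-fold (2.32 to 6.36) and Tlr2 2.29-fold higher (1.602 to 3.25), and Tlr4 2.87-fold (1.34 to 7.34) and Ly96 2.61-fold lower (1.48 to 5.0).

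The reporter gave another division of the macrophages. EYFP was found in 99 of 136 macrophages at steady state (72.8%) and in 322 of 2085 on AngII (15.4%), beside 9.30% and 3.21% of T cells and 6 of 7 type-2 innate lymphoid cells at steady state. At these depths a cell without an EYFP UMI, called Yfp- here, need not be unlabelled. No gene passed 2-fold between Yfp+ and Yfp- macrophages in either library. The shares of all genes that did were 8.74% higher and 3.27% lower among 7788 genes at steady state, and 2.24% higher and 2.72% lower among 10937 genes on AngII. Tlr7 was higher in Yfp+ cells at steady state (102 and 58.2 CPM, ratio 1.75, 1.09 to 2.95) and on AngII (62.7 and 40.5 CPM, 1.55, 1.26 to 1.90). Within resident macrophages alone the ratios for Tlr7 were 1.16 (0.705 to 2.01) and 1.37 (0.998 to 1.89). Cd14 was 1.52-fold higher in Yfp+ cells at steady state (1.27 to 1.84), and within resident macrophages it was level there (623 CPM in both, ratio interval 0.809 to 1.25). Tlr3 passed 2-fold within AngII resident macrophages, from 21 and 7 UMIs, with an interval that held 1 (2.37, 0.970 to 6.60).

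**Figure D4:**
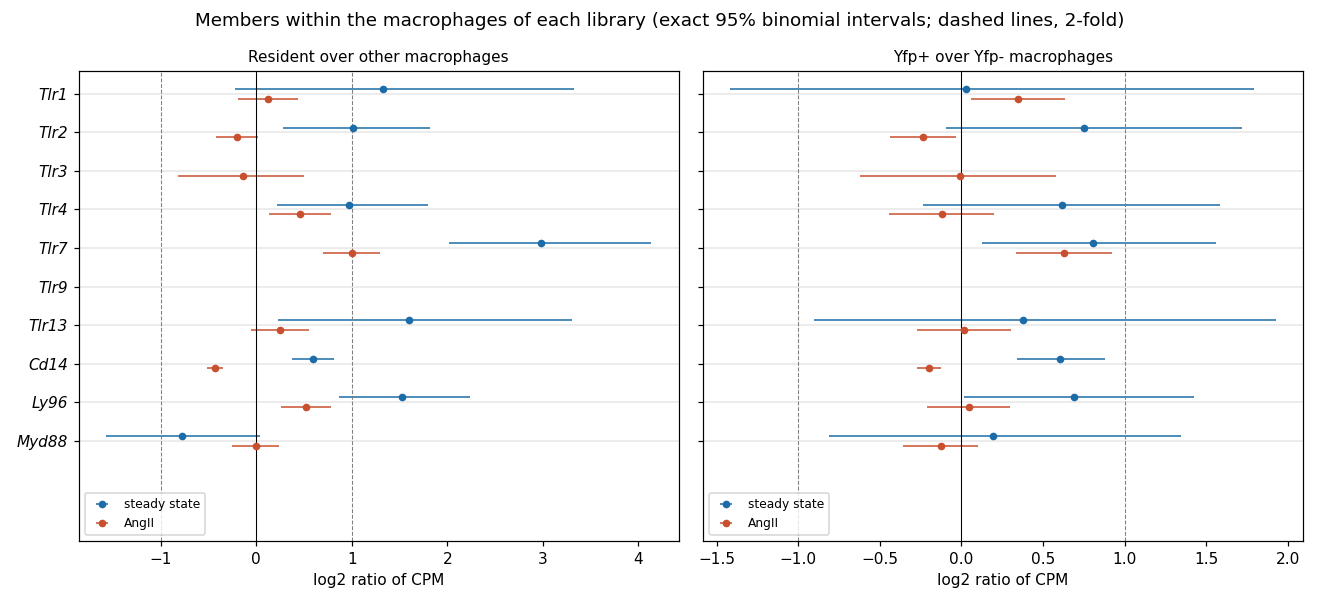
Log2 ratio of CPM in resident over other macrophages (left) and in Yfp+ over Yfp- macrophages (right) for each gene with at least 20 UMIs, at steady state (blue) and on AngII (red); bars are exact 95% binomial intervals and dashed lines mark 2-fold. Tlr7 lies above equality in all 4 comparisons, and Cd14 changes sides between the libraries in both panels.

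The rest of the pathway was read from 7 lists of 60 genes. In macrophages 57 could be compared between AngII and steady state, of which 9 were at least 2-fold higher and 4 lower, with a median ratio of 1.16 against 0.982 for all genes. Among all genes 8.32% were higher and 8.67% lower, so the count of lower genes is near the background. Among the 5 other Toll-like receptors, the flagellin receptor Tlr5 was 2.58-fold lower on AngII (1.63 to 4.02, from 18.8 to 7.28 CPM). Tlr12 had 0 UMIs at steady state and 35 on AngII (4.39 CPM). With that 0 set to 3 UMIs its ratio was 2.57, and the exact interval started at 1.98. AngII T cells held 7.63 CPM of Tlr12 (3.81 to 13.6), so its macrophage level was not above that of T cells. Of the 35 UMIs, 33 lay in 13 cells of the macrophages of no smaller class and 1 in resident macrophages. The source of these UMIs was not tested. Tlr8 (37.0 and 20.2 CPM, ratio 0.546), Tlr6 (9.11 and 13.6 CPM, 1.49) and Tlr11 (2.85 and 2.26 CPM, 0.794) lay within 2-fold. In type-1 dendritic cells Tlr11 held 77.5 CPM at steady state and 49.3 CPM on AngII.

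Of 7 accessory molecules, the scavenger receptor Cd36 was 5.32-fold lower on AngII (4.90 to 5.78; 706 and 133 CPM), and the lipopolysaccharide carrier Lbp was higher from 1 UMI against 35 (ratio 7.72, 1.30 to 313). None of 4 adaptors compared and 1 of 15 kinases and ubiquitin ligases passed, the kinase Ikbke at 5.69 and 25.0 CPM (4.39, 2.34 to 9.29). Of 6 transcription factors 2 were higher, Irf7, which drives type I interferon genes, at 11.96 and 105 CPM (8.77, 5.70 to 14.2) and Irf8 at 79.1 and 160 CPM (2.02, 1.70 to 2.43). Of 7 inhibitors 1 was higher, Sigirr, from 3 and 33 UMIs (2.43, 0.761 to 12.4).

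The products were divided. Of 13 compared, Il1b was at 83.7 and 939 CPM (11.2-fold, 9.53 to 13.3) and Ptgs2 at 9.68 and 99.3 CPM (10.3-fold, 6.37 to 17.7). Acod1 was at 0 and 23.1 CPM, a ratio of 13.5 with the 0 set to 3 UMIs. Lymphocytes showed part of the same difference. In B cells 7 of 8 products compared were at least 2-fold higher on AngII, against 11.9% higher and 6.31% lower among 5611 genes, with Il1b at 20.3 and 485 CPM (23.9, 10.9 to 65.8) and Ptgs2 from 1 and 35 UMIs (17.1, 2.87 to 694). In T cells 4 of 9 were higher, Il1b, Cxcl2, Ccl3 and Zfp36, against 19.0% higher and 6.54% lower among 8261 genes. Il1b there went from 0 UMIs to 279 CPM, a ratio of 38.6 with the 0 set to 3 UMIs. Ptgs2 went from 31.3 to 18.0 CPM (0.576, 0.286 to 1.22). The part of free RNA or of mixed droplets in these values was not tested. In macrophages the anti-inflammatory cytokine Il10 was 2.43-fold lower (1.71 to 3.41) and Nfkbiz, an inducible regulator of NF-kB targets, 2.44-fold lower (2.28 to 2.62). Between resident and other macrophages on AngII, 1 of 13 products was higher, Il10, and 5 were lower, Il1b, Il6, Cxcl10, Ptgs2 and Acod1, against 4.86% and 4.08% of all genes.

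The genes lie on 8 chromosomes of GRCm38. Tlr1 spans chr5:64924679-64933563, Tlr2 chr3:83836272-83841767, Tlr3 chr8:45395665-45411080, Tlr4 chr4:66827584-66930284 and Tlr7 chrX:167304929-167330558. Tlr9 spans chr9:106222598-106226883, Tlr13 chrX:106143204-106160493, Cd14 chr18:36725067-36726798, Ly96 chr1:16688051-16709611 and Myd88 chr9:119335934-119341411. No exon of any of them overlapped an exon of another gene on the same strand, while exons of Tlr3 and Myd88 overlapped Gm45542 and Acaa1a on the opposite strand. Tlr1 and its neighbour Tlr6 are close paralogs, and reads that fit both can be lost or misplaced, so values for Tlr1 are uncertain in that respect.

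Across the 16 groups of class and library with at least 20 cells, the level of each gene was compared with those of 10121 genes. The groups share libraries, so the correlations are descriptions only. Tlr2 and Cd14 followed each other most closely within the set (Pearson r = 0.949 of log2 CPM with 10 added). Cd14 was most like Itgam (0.959), Cebpb (0.9496) and Ccr1 (0.949), and Tlr2 most like Cd14, Prdx5 (0.927) and Cebpb (0.925). Tlr7 was most like Stab1 (0.907), which is itself one of the resident markers, Fbxl4 (0.889) and Nfxl1 (0.887). Tlr3 was most like Commd8 (0.935), P2ry14 (0.929) and Gcsam (0.927). Ly96 went with Tcn2 (0.954), Cd302 (0.947) and Adap2 (0.940), and Tlr4 with Fndc3b, Ets2 and Ninj1 (each 0.918). Tlr13 went with Sptlc2 (0.916), Oasl2 (0.903) and Tmbim4 (0.90), Myd88 with Mpc2 (0.920), Gm2a (0.915) and Fuca2 (0.914), and Tlr1 with Necap1 (0.876), Vipas39 (0.876) and Abhd13 (0.862). Tlr3 ran opposite to Tlr1 (r = -0.48), and Tlr9 had too few UMIs to be placed.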

How the data were processed

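Per the study's methods, the authors built the libraries with 10x 3' chemistry v3.1 and counted them with Cell Ranger 3.1.0 on a GRCm38.p6 genome to which eYFP had been added, annotated by GENCODE M24. The deposited values are UMI counts for each gene in each barcode, not normalized, which were used as such, 1 library per condition. Gene coordinates and overlaps came from GENCODE M21. The filter the study states (300 to 6500 genes per barcode, mitochondrial share up to 5%) was applied to the deposited barcodes and left 306 of 346 and 4198 of 4419, whereas the study gives all 346 and 4419 as its cells, so cells that it kept were removed here. Within a library, a marker counted as found in a cell when its UMIs exceeded the library's mean share of that marker times the cell's total. A cell took the list with the largest share of markers found (at least 2), Arg1 Spp1 and Ear2 Retnla macrophages also needed one of the genes that name them, and 2 and 324 cells stayed unassigned. Classes of at least 10 cells are ordered.

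UMIs were summed per class. A level has an exact Poisson, a share a Clopper-Pearson and a ratio an exact conditional binomial interval. A gene counts as past 2-fold at a ratio of at least 2 or at most 0.5 with at least 20 UMIs in both groups together, and a group at 0 was set to 3 UMIs. No test between conditions is possible. Doublets were not called: cells in which another lineage reached 60% of the winning score (48 and 1114) were left out as an alternative. Leiden clusters (scanpy 1.11.5, resolution 0.8, made without the 10 genes) were another, and the class of 80.3% and 59.7% of gated cells was that of their cluster. The code was tested on simulated data. All 10 genes and each pathway gene past 2-fold in macrophages are named. The genes, lists and comparisons were chosen with earlier results of these data known, and the gate, the resident level, thinning to 5000 UMIs and ratios within resident or other macrophages were set after the data were seen.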

Additional observations from a re-analysis of the deposited data

Results flagged for a closer look

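Several effects had intervals on opposite sides of equality in 2 groups under the same contrast. With 1 library per condition the differences between these effects were not tested. Cd14 in resident over other macrophages had a ratio of 1.51 at steady state and 0.742 on AngII. Cd14 in Yfp+ over Yfp- macrophages had ratios of 1.52 and 0.871, and Cd14 in monocytes over macrophages 0.531 and 1.21. Tlr7 in monocytes over macrophages had ratios of 1.41 at steady state and 0.612 on AngII. For AngII over steady state, Tlr7 had a ratio of 0.592 in resident macrophages and 0.228 in monocytes, but of 2.33 in other macrophages and 4.03 in B cells. The B cell ratio came from 33 UMIs on AngII and 4 at steady state (1.43 to 15.7). In 38 of the 137 AngII B cells another lineage came close, and the part of RNA from other cells was not tested. The other macrophages were 18 of 25 Ear2 Retnla macrophages at steady state and 194 of 1528 on AngII, and within that class Tlr7 was 10.2 CPM (3.31 to 23.8) and 18.2 CPM (10.8 to 28.7). Tlr3 had a ratio of 0.545 in type-1 dendritic cells and of 2.46 in other macrophages, where its 0 UMIs at steady state were set to 3. The type-1 dendritic cells were 13 at steady state, all with a UMI of Xcr1 or Clec9a, against 169 of 311 on AngII.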

How the results depend on the processing

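The count of 3 genes past 2-fold between AngII and steady state in macrophages stayed within 1.5 times under every alternative run. Of the other counts, the 5 genes for resident over other macrophages at steady state became 0 with cells thinned to 1000 UMIs, 3 with the mean of single-cell CPM, 3 with at least 50 UMIs per gene and 2 with cells thinned to 5000 UMIs. Tlr1 there turned to a ratio of 0.919 with the mean of single-cell CPM. The 0 genes for resident over other macrophages on AngII became 1 with all deposited barcodes, only cells of at least 1000 UMIs, the mean of single-cell CPM, at least 3 markers, T-cell CPM subtracted or 5000 UMIs, and 2 with Leiden clusters. The 0 genes for monocytes over macrophages on AngII became 1 with Leiden clusters, with cells near another lineage left out and with 5000 UMIs. The 0 genes for Yfp+ over Yfp- macrophages at steady state became 1 with 1000 UMIs, cells near another lineage left out or T-cell CPM subtracted, 2 with 5000 UMIs and 4 with Leiden clusters, and on AngII the 0 became 1 with 1000 UMIs. On AngII 5 of the 10 genes had their highest level in a macrophage or monocyte class, and 3 with 500 UMIs and 2 with 1000. The causes were not tested. Thinning leaves fewer UMIs and also drops the cells below its cut, and the minimum of 50 leaves fewer genes. Among single genes, of 620 values under an alternative 580 kept their side of 2-fold, 30 passed it, 9 no longer did and 1 turned. The median depth of 1092 UMIs on AngII limits every statement on single cells, and 25 other macrophages and 26 monocytes limit those at steady state. No paired analysis was possible because each condition has 1 library.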
